A study of Mus musculus with 8 samples.

Results

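The genes described here are 33 mouse genes of lipogenesis, the making of new fatty acids, and of cholesterol synthesis, taken as a fixed list of names with every probe set annotated to them. The list was chosen with earlier results of these data known, so its counts beside those of all genes are descriptive. Of the 33, 31 had a probe set: all 10 of the fatty acid genes and 21 of the 23 sterol genes, among 12393 genes on the array. Insig1 and Acat2 were not analysed here. All 31 lay above the lowest 25% of genes by mean intensity, which were not tested, so none was lost to that filter.

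RNA was measured on 8 Affymetrix arrays, 2 for each of 4 groups of adipocytes grown from SV (stromal-vascular) cells of the inguinal white fat of male C57BL/6J mice. The groups were sh-PRDM16 cells with 1 µM rosiglitazone, sh-PRDM16 cells with no agent, sh-scr cells with 1 µM rosiglitazone and sh-scr cells with no agent, called treated and untreated sh-PRDM16 cells and treated and untreated sh-scr cells. Rosiglitazone activates the nuclear receptor PPARγ, the shRNA sh-PRDM16 is named for the brown-fat co-regulator PRDM16, and sh-scr is the control shRNA. The design asks how the drug and PRDM16 act together on these cells. No probe set was annotated to Prdm16, so the knockdown itself was not analysed here and is taken from the labels. The sample titles call the 2 arrays of a group biological replicates. The labels do not give the animals' age, whether a line was a clone or a pool, or whether these arrays came from separate cultures. The p-values therefore reflect the scatter between these arrays, which may be technical. SV cells are a mixed population, and fewer cells of a type cannot be told apart from less RNA per cell.

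Adipocytes make fatty acids from citrate. Acly cuts citrate into acetyl-CoA, Acss2 makes acetyl-CoA from acetate, acetyl-CoA carboxylase (Acaca) and fatty acid synthase (Fasn) build the chain, and malic enzyme (Me1) supplies NADPH. Sterols start from the same acetyl-CoA. The mevalonate steps run through Hmgcs1, Mvk, Pmvk, Mvd, Idi1 and Fdps to farnesyl diphosphate, and Fdft1, Sqle, Lss and the enzymes after them make cholesterol. Transcription factors of the SREBP family drive both pathways: Srebf1 mainly the fatty acid genes and Srebf2 mainly the sterol genes, with Scap and the Insig proteins holding the precursors back when sterols are plentiful.

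Promoter sequences are shown for 6 genes whose values the results below turn on, to place the letters of the sterol regulatory element (SRE, the SREBP site) and of the CCAAT box, which often stands beside it. Each is the 250 bases directly before the RefSeq transcript start in GRCm38.p6, upstream of the gene's first exon and read in the direction of the gene. Capitals mark TCACNCCAC (the SRE letters) and CCAAT on either strand, so ATTGG is a CCAAT box on the other strand, and the 2 in Fasn that read CCAATTGG overlap. The windows are chr13:119690101-119690350 (plus strand) for Hmgcs1, chr8:122443423-122443672 (minus) for Mvd, chr10:76531355-76531604 (plus) for Lss, chr2:155517793-155518042 (plus) for Acss2, chr11:120824548-120824797 (minus) for Fasn and chr7:97417551-97417800 (minus) for Thrsp.
Hmgcs1: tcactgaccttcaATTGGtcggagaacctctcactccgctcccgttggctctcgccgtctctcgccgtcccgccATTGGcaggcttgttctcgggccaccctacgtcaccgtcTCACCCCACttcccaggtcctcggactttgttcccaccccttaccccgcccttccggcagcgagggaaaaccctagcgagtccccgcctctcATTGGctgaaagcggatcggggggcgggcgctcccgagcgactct
Mvd: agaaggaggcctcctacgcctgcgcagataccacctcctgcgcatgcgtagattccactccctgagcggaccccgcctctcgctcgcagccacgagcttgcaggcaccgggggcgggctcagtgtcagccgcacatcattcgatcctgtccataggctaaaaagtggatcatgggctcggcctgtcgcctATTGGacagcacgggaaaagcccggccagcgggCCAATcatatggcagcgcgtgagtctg
Lss: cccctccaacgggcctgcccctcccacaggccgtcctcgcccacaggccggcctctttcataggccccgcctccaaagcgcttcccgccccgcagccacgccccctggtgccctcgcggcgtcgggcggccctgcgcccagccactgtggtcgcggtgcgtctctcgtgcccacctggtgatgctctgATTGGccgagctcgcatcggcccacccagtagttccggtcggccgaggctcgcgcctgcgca
Acss2: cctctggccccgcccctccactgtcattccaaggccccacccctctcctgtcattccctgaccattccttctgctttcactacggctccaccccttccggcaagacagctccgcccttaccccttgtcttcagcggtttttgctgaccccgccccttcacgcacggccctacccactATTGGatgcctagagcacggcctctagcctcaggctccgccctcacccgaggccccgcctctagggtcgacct
Fasn: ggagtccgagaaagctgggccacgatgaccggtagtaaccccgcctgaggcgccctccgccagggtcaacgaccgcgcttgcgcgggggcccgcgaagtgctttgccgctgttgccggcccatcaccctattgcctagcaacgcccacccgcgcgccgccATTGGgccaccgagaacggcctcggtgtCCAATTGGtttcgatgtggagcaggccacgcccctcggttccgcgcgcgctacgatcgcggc
Thrsp: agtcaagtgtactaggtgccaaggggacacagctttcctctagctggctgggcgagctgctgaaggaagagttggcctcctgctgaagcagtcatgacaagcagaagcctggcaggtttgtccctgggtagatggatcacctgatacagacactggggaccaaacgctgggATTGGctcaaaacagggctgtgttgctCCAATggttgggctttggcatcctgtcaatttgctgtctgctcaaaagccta

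RefSeq windows of 300 bases, which add the first 50 bases after the start, were found for 28 of the 33 members. These were 9 fatty acid and 19 sterol genes with 38 windows in all. Fads1, Fdps, Fdft1, Sqle and Stard4 had none. Only the 250 bases before the start were searched in each window, so the shares below leave out the 50 bases after it. The SRE letters were in 1 of 13 windows of the fatty acid genes (Mlxipl), in 1 of 25 windows of the sterol genes (Hmgcs1, 137 to 129 bases before the start) and in 1.05% of 32851 windows of all genes. CCAAT, searched like the others on both strands, was in 53.8% of the fatty acid windows, 68.0% of the sterol windows and 33.8% of all windows. Likewise the GC box letters GGGCGG were in 53.8%, 80.0% and 32.7%, and the E-box CACGTG in 7.69%, 20.0% and 6.02% of windows, in the same order. These shares describe letters in a window. They are not binding sites, and windows of 1 gene can overlap. Only the exact letters were searched, so variants of a site were not counted.

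Intensities below were quantile normalized, since the median of the deposited arrays ranged from 100.7 to 135.65 with no common target. A change is the difference of group means of log2(intensity + 16), which understates changes of dim genes, and intensities of different probe sets are not compared. A gene is said to rise or fall where limma gave an adjusted p under 0.05 over all 9294 genes tested. On the deposited scale the median change of all genes was 0.00 and -0.31 with rosiglitazone in sh-PRDM16 and sh-scr cells, and 0.15 and -0.16 for sh-PRDM16 against sh-scr cells with and without the drug. Calls that change on the deposited scale are therefore named.

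Most of the fatty acid genes were lower in sh-PRDM16 than in sh-scr cells, 5 of 10 past the test with rosiglitazone and 8 of 10 without it, beside 12.7% of all genes that fell in each. Thrsp, a regulator of lipogenesis known as Spot 14, had the largest difference. It had 375 and 441 in treated sh-PRDM16 cells, 252 and 326 in untreated sh-PRDM16 cells, 1854 and 2125 in treated sh-scr cells and 1685 and 1929.6 in untreated sh-scr cells. All 4 sh-PRDM16 arrays lay below all 4 sh-scr arrays. The difference was log2 -2.24 (SE 0.15, adjusted p = 0.000783) with the drug and -2.59 (SE 0.15, adjusted p = 0.000743) without it. Rosiglitazone itself moved Thrsp by 0.48 in sh-PRDM16 cells (adjusted p = 0.0641) and by 0.14 in sh-scr cells (adjusted p = 0.552), neither past the threshold.

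The acetyl-CoA enzymes differed in the same direction. Acss2 had 1533 and 1734 in treated sh-PRDM16 cells, 963 and 952 in untreated sh-PRDM16 cells, 4336 and 5314 in treated sh-scr cells and 2960.1 and 3432 in untreated sh-scr cells. Within each drug state the sh-PRDM16 arrays lay below the sh-scr arrays, and within each line the treated arrays lay above the untreated ones. The difference between the lines was log2 -1.55 with rosiglitazone and -1.72 without (SE 0.13 each, adjusted p = 0.00132 and 0.000981), and the drug raised Acss2 by 0.76 in sh-PRDM16 and 0.59 in sh-scr cells (adjusted p = 0.00841 and 0.0196). Acly had 4113 and 4239 in treated sh-PRDM16 cells, 2813 and 3059 in untreated sh-PRDM16 cells, 6281 and 6941 in treated sh-scr cells and 5477 and 6004 in untreated sh-scr cells. It too was lowest in both untreated sh-PRDM16 arrays, and it rose with the drug in sh-PRDM16 cells (log2 0.51, SE 0.09, adjusted p = 0.00913) but did not pass in sh-scr cells (0.20, adjusted p = 0.138). With the arrays scaled to a common median instead, Acly rose past the threshold in sh-scr cells too.

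Me1, the NADPH source, rose with rosiglitazone in both lines. It had 4525 and 4945 in treated sh-PRDM16 cells, 2034 and 2159 in untreated sh-PRDM16 cells, 6362 and 6245 in treated sh-scr cells and 3892 and 4555 in untreated sh-scr cells. Untreated sh-PRDM16 cells were lowest and treated sh-scr cells highest, and the other groups overlapped. The rise was log2 1.17 in sh-PRDM16 cells and 0.58 in sh-scr cells (SE 0.10 each, adjusted p = 0.000733 and 0.00837), and the difference between the lines was -0.41 with the drug (adjusted p = 0.0286), while without it sh-PRDM16 cells averaged 2096 ± 88.5 and sh-scr cells 4223 ± 468 (SD, n = 2 each, adjusted p = 0.00188 by limma).

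Fasn, which assembles palmitate, went the other way in sh-scr cells. It had 3187 and 3373 in treated sh-PRDM16 cells, 2924 and 2843 in untreated sh-PRDM16 cells, 4574 and 4769.9 in treated sh-scr cells and 6369 and 6737 in untreated sh-scr cells. Untreated sh-scr cells were the highest group and no 2 groups overlapped. Rosiglitazone lowered Fasn in sh-scr cells (log2 -0.49, SE 0.07, adjusted p = 0.00493), while in sh-PRDM16 cells the treated arrays lay slightly above the untreated ones without passing the test (0.18, adjusted p = 0.100). Fasn was lower in sh-PRDM16 than in sh-scr cells, with a log2 change of -0.51 with and -1.18 without the drug (adjusted p = 0.00549 and 0.000743). Acaca, which makes malonyl-CoA for that chain, was read by 1 dim probe set with 33.9 and 27.1 in treated sh-PRDM16 cells, 12.4 and 17.1 in untreated sh-PRDM16 cells, 24.2 and 29.7 in treated sh-scr cells and 15.0 and 29.0 in untreated sh-scr cells. At these levels the groups overlapped in part and none of the 4 Acaca comparisons passed (adjusted p from 0.0679 to 0.700).

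The desaturases of polyunsaturated fatty acids differed by small amounts. Fads1 had 946 and 924 in treated sh-PRDM16 cells, 908 and 951 in untreated sh-PRDM16 cells, 946 and 935 in treated sh-scr cells and 1193 and 1313 in untreated sh-scr cells. Only the untreated sh-scr arrays stood apart, above the other 6, and Fads1 fell with rosiglitazone in sh-scr cells (log2 -0.41, SE 0.07, adjusted p = 0.0102) and was lower in untreated sh-PRDM16 than untreated sh-scr cells (log2 -0.42, SE 0.07, adjusted p = 0.0110). The brighter Fads2 probe set ranged from 264 to 389 over the 8 arrays and passed in none of the 4 comparisons (adjusted p from 0.0745 to 0.753). On the deposited scale, where the median of all genes itself fell, it passed with rosiglitazone in sh-scr cells (-0.42) and between the untreated lines (-0.55). The other Fads2 probe set, tested among all probe sets, rose with the drug in sh-PRDM16 cells (0.55, adjusted p = 0.0192) and was lower between the untreated lines (-0.44, adjusted p = 0.0448).

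Of the transcription factors, Srebf1 stood apart in a single group. It had 2663 and 2652 in treated sh-PRDM16 cells, 1644 and 1629 in untreated sh-PRDM16 cells, 2612 and 2568 in treated sh-scr cells and 2266 and 2654 in untreated sh-scr cells. The untreated sh-PRDM16 arrays lay below the other 6, which overlapped in part. Srebf1 rose with the drug in sh-PRDM16 cells (log2 0.69, SE 0.09, adjusted p = 0.00301) and was lower in untreated sh-PRDM16 than untreated sh-scr cells (log2 -0.58, SE 0.09, adjusted p = 0.00720), with 0.04 between the treated lines (adjusted p = 0.782). Mlxipl, the carbohydrate-sensing factor ChREBP, had 97.3 and 136 in treated sh-PRDM16 cells, 62.8 and 73.3 in untreated sh-PRDM16 cells, 165 and 192 in treated sh-scr cells and 169 and 239 in untreated sh-scr cells. It was lower in untreated sh-PRDM16 than untreated sh-scr cells (log2 -1.38, SE 0.20, adjusted p = 0.00697), and its treated sh-PRDM16 arrays lay between, with no other comparison past the threshold (adjusted p from 0.0622 to 0.591).

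**Figure D1:**
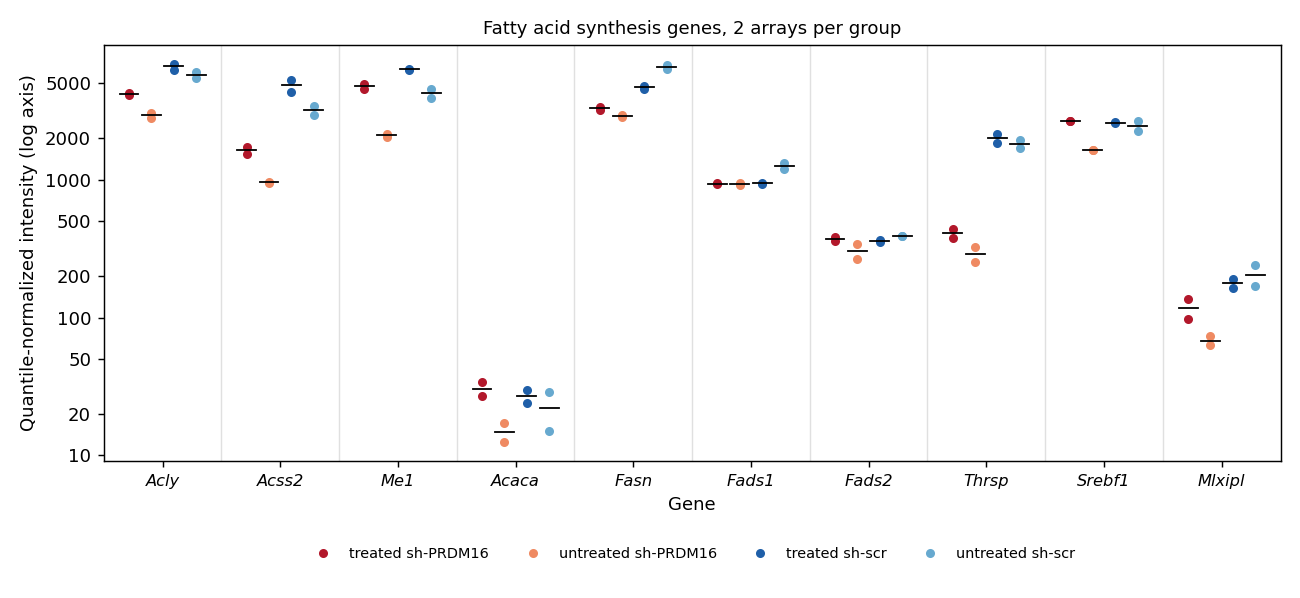
Quantile-normalized intensity (log axis) of the 10 fatty acid genes in the 4 groups. Each point is 1 array and each black line a group mean (n = 2), and the untreated sh-PRDM16 arrays lie below the other 6 arrays for 8 of the 10 genes, all but Acaca and Fads1.

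Counted over the 10 fatty acid genes, rosiglitazone raised 4 and lowered 0 in sh-PRDM16 cells, where it raised 13.3% and lowered 13.6% of all genes tested. In sh-scr cells it raised 2 (Acss2 and Me1) and lowered 2 (Fasn and Fads1), against 13.2% and 15.0% of all genes. The median change was log2 0.55 in sh-PRDM16 and 0.11 in sh-scr cells, beside -0.06 and -0.05 over all genes. The sh-PRDM16 cells were lower for 5 genes and higher for 0 with the drug (12.7% of all genes fell and 12.6% rose), with a median of -0.46 against 0.02 over all genes. Without the drug they were lower for 8 and higher for 0 (12.7% fell and 10.6% rose), with a median of -0.98 against 0.03. The 5 genes lower with the drug were Acly, Acss2, Fasn, Me1 and Thrsp, and all were among the 8. Markers of adipocytes moved in the same direction between the lines, 5 of 8 lower with the drug and 7 of 8 without it, as did those of macrophages, 5 of 6 and 4 of 6, and their part in the result was not tested.

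On the deposited scale, where 10.2% of genes rose and 3.35% fell with the drug in sh-PRDM16 cells and 5.24% rose and 32.3% fell in sh-scr cells, Acss2 missed the threshold in sh-scr cells and the other 7 calls with the drug remained. There, Me1 and Fasn missed it between the treated lines (4.77% of genes lower, 10.6% higher) and all 8 calls between the untreated lines remained (15.7% lower, 1.98% higher). Leaving out 1 array at a time ended the calls of Acss2 and Fads1 with the drug in sh-scr cells (2 arrays each, adjusted p up to 0.101 without untreated sh-scr replicate 1 and 0.0539 without untreated sh-scr replicate 2), of Acly and Acss2 with the drug in sh-PRDM16 cells (adjusted p = 0.0536 and 0.0507, both without treated sh-PRDM16 replicate 2), of Fads1 between the untreated lines (2 arrays, up to 0.0633 without untreated sh-scr replicate 2) and of Me1 between the treated lines (any of the 4 treated arrays, up to 0.134 without treated sh-PRDM16 replicate 1).

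Of the sterol genes, 14 of 21 rose with rosiglitazone in sh-PRDM16 cells (13.3% of all genes did) and 11 of 21 in sh-scr cells (13.2%), and 16 of 21 were lower in sh-PRDM16 than in sh-scr cells both with and without the drug (12.7% each). Of the 3 regulators measured, 0 rose with the drug. Srebf2, the sterol SREBP, had 288 and 292 in treated sh-PRDM16 cells, 262 and 289 in untreated sh-PRDM16 cells, 266 and 285 in treated sh-scr cells and 259 and 265 in untreated sh-scr cells. Its arrays spanned a narrow range and it passed in none of the 4 comparisons (log2 changes from 0.07 to 0.07, adjusted p from 0.515 to 0.556). Scap, which escorts SREBPs to the Golgi, had 748 and 802 in treated sh-PRDM16 cells, 836 and 988 in untreated sh-PRDM16 cells, 636 and 644 in treated sh-scr cells and 772 and 738 in untreated sh-scr cells. The treated arrays lay below the untreated ones in each line and the sh-PRDM16 arrays above the sh-scr arrays in each drug state, with none past the threshold (adjusted p from 0.0866 to 0.131). Insig2, which retains Scap in the endoplasmic reticulum, had 489 and 474 in treated sh-PRDM16 cells, 499 and 453 in untreated sh-PRDM16 cells, 583 and 623 in treated sh-scr cells and 523 and 533 in untreated sh-scr cells. It was lower in treated sh-PRDM16 than treated sh-scr cells (log2 -0.31, SE 0.08, adjusted p = 0.0300) and passed nowhere else.

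Hmgcs1, the synthase that makes HMG-CoA, the precursor of mevalonate, had 9017 and 8423 in treated sh-PRDM16 cells, 3165 and 3544 in untreated sh-PRDM16 cells, 11498 and 10424 in treated sh-scr cells and 5816 and 6079 in untreated sh-scr cells. No 2 groups overlapped, and in each line the treated arrays lay well above the untreated ones. The rise was log2 1.38 in sh-PRDM16 and 0.88 in sh-scr cells (SE 0.09 each, adjusted p = 0.000325 and 0.00164). Between the lines Hmgcs1 was lower in sh-PRDM16 cells, with a change of -0.33 with the drug (adjusted p = 0.0442) and -0.82 without it (adjusted p = 0.00265). Of the promoters printed above, only that of Hmgcs1 has the SRE letters, and a link between the letters and these values was not tested.

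Mvd, the decarboxylase that makes isopentenyl diphosphate, had 247 and 241 in treated sh-PRDM16 cells, 122 and 109 in untreated sh-PRDM16 cells, 558 and 539 in treated sh-scr cells and 237 and 235 in untreated sh-scr cells. The treated sh-PRDM16 arrays lay just above the untreated sh-scr arrays, between the extremes set by untreated sh-PRDM16 and treated sh-scr cells. The drug raised Mvd by log2 0.98 in sh-PRDM16 and 1.16 in sh-scr cells, and the difference of sh-PRDM16 from sh-scr cells was -1.12 with it and -0.94 without it (SE 0.07 each, highest adjusted p = 0.00101).

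Pmvk, phosphomevalonate kinase, had 519 and 516 in treated sh-PRDM16 cells, 322 and 358 in untreated sh-PRDM16 cells, 1318 and 1401 in treated sh-scr cells and 774 and 776 in untreated sh-scr cells. Here the treated sh-PRDM16 arrays stayed below the untreated sh-scr arrays. The drug raised Pmvk by 0.59 and 0.80 in sh-PRDM16 and sh-scr cells, and the lines differed by -1.37 with and -1.15 without it (SE 0.08 each, highest adjusted p = 0.00334). Mvk, mevalonate kinase, had 90.3 and 96.9 in treated sh-PRDM16 cells, 98.8 and 96.9 in untreated sh-PRDM16 cells, 242 and 209 in treated sh-scr cells and 154 and 207 in untreated sh-scr cells. It did not pass with the drug in either line (adjusted p = 0.802 and 0.154), while all 4 sh-PRDM16 arrays lay below all 4 sh-scr arrays (log2 -1.14 with and -0.78 without rosiglitazone, adjusted p = 0.00401 and 0.0127). That order did not hold for its other probe set, which had 50.2 and 106 in treated sh-PRDM16 cells, 44.2 and 36.2 in untreated sh-PRDM16 cells, 101 and 101 in treated sh-scr cells and 114 and 134 in untreated sh-scr cells and gave -0.38 with the drug (adjusted p = 0.375) and -1.32 without it (adjusted p = 0.0254).

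The next mevalonate enzymes, Idi1, an isomerase, and Fdps, farnesyl diphosphate synthase, rose in sh-PRDM16 cells. Idi1 had 1334 and 1545 in treated sh-PRDM16 cells, 785 and 702 in untreated sh-PRDM16 cells, 1460.0 and 1565 in treated sh-scr cells and 1222 and 1182 in untreated sh-scr cells. Untreated sh-PRDM16 cells were the low group and the treated groups overlapped. The rise was 0.94 in sh-PRDM16 cells (SE 0.10, adjusted p = 0.00166), with 0.33 in sh-scr cells (adjusted p = 0.0548). Fdps had 2026 and 1938 in treated sh-PRDM16 cells, 1229 and 1385 in untreated sh-PRDM16 cells, 3688 and 3908 in treated sh-scr cells and 2901 and 3274 in untreated sh-scr cells. All 4 sh-PRDM16 arrays were below all 4 sh-scr arrays, with differences of -0.93 with and -1.23 without the drug (adjusted p = 0.00234 and 0.00107), and its change with the drug was 0.60 in sh-PRDM16 cells (adjusted p = 0.00689) and 0.30 in sh-scr cells (adjusted p = 0.0614).

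At the squalene steps the members parted. Fdft1, squalene synthase, had 1328 and 1366 in treated sh-PRDM16 cells, 952 and 1020.2 in untreated sh-PRDM16 cells, 1656 and 1784 in treated sh-scr cells and 1866 and 1798 in untreated sh-scr cells. It rose with the drug in sh-PRDM16 cells (log2 0.44, SE 0.07, adjusted p = 0.00763) and did not pass in sh-scr cells (-0.09, adjusted p = 0.402). Sqle, squalene epoxidase, had 917 and 889 in treated sh-PRDM16 cells, 779 and 868 in untreated sh-PRDM16 cells, 1229 and 1147 in treated sh-scr cells and 1211 and 1313 in untreated sh-scr cells. It passed with the drug in neither line (0.13 and -0.09 in sh-PRDM16 and sh-scr cells, adjusted p = 0.297 and 0.502). Both genes were lower in sh-PRDM16 cells, with differences for Fdft1 of -0.35 with and -0.88 without the drug and for Sqle of -0.39 with and -0.61 without it (highest adjusted p = 0.0228).

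Lss, lanosterol synthase, and Dhcr7, the reductase that turns 7-dehydrocholesterol into cholesterol, had the largest rises of all members. Lss had 918 and 1028 in treated sh-PRDM16 cells, 197 and 289 in untreated sh-PRDM16 cells, 1615 and 1851 in treated sh-scr cells and 541 and 625 in untreated sh-scr cells. All 4 treated arrays lay above all 4 untreated arrays. The rise was log2 1.95 in sh-PRDM16 and 1.55 in sh-scr cells (SE 0.18 each, adjusted p = 0.00110 and 0.00275). Dhcr7 had 1046 and 952 in treated sh-PRDM16 cells, 191 and 149 in untreated sh-PRDM16 cells, 906 and 1196 in treated sh-scr cells and 255 and 324 in untreated sh-scr cells. Its treated groups overlapped, and both lay above the untreated groups, which did not overlap. The rise was 2.46, 5.50-fold, in sh-PRDM16 cells and 1.80, 3.48-fold, in sh-scr cells (SE 0.19 each, adjusted p = 0.000566 and 0.00168). Between the lines Dhcr7 differed by -0.06 with the drug (adjusted p = 0.841) and -0.72 without it (adjusted p = 0.0398), and Lss by -0.82 and -1.23 (adjusted p = 0.0242 and 0.00709).

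Among the enzymes between Lss and Dhcr7, Sc5d, the sterol desaturase, had 2131 and 2146 in treated sh-PRDM16 cells, 1302 and 1368 in untreated sh-PRDM16 cells, 3614 and 3510.0 in treated sh-scr cells and 2373 and 2510.0 in untreated sh-scr cells. No 2 groups overlapped and the spread within groups was small. Sc5d rose by 0.67 in sh-PRDM16 and 0.54 in sh-scr cells and was lower in sh-PRDM16 cells, with differences of -0.73 with and -0.86 without the drug (SE 0.07 each, highest adjusted p = 0.00296). Nsdhl, a sterol dehydrogenase of C4 demethylation, had 868 and 1032 in treated sh-PRDM16 cells, 636 and 614 in untreated sh-PRDM16 cells, 1737 and 1842 in treated sh-scr cells and 1166 and 1440.4 in untreated sh-scr cells. Msmo1, the C4 methyl oxidase, had 1124 and 1076 in treated sh-PRDM16 cells, 784 and 779 in untreated sh-PRDM16 cells, 1833 and 1759 in treated sh-scr cells and 1364 and 1461 in untreated sh-scr cells. Both followed the order of Sc5d, lowest in untreated sh-PRDM16 and highest in treated sh-scr cells, with the treated sh-PRDM16 arrays below the untreated sh-scr arrays. Nsdhl rose by 0.59 and 0.46 and Msmo1 by 0.48 and 0.34 in sh-PRDM16 and sh-scr cells (highest adjusted p = 0.0422).

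Hsd17b7, the keto-reductase of the same step, had 551 and 538 in treated sh-PRDM16 cells, 351 and 396 in untreated sh-PRDM16 cells, 948 and 840.1 in treated sh-scr cells and 416 and 564 in untreated sh-scr cells. It rose by 0.53 in sh-PRDM16 and 0.86 in sh-scr cells (adjusted p = 0.0472 and 0.00985), and the lines differed with the drug (log2 -0.70, SE 0.15, adjusted p = 0.0223) but not past the threshold without it (-0.36, adjusted p = 0.134). Cyp51, lanosterol demethylase, had 1454 and 1441 in treated sh-PRDM16 cells, 943 and 987 in untreated sh-PRDM16 cells, 1658 and 1876 in treated sh-scr cells and 1344 and 1347 in untreated sh-scr cells. It rose by 0.58 and 0.39 in sh-PRDM16 and sh-scr cells (adjusted p = 0.00412 and 0.0157). Tm7sf2, a sterol reductase, ranged from 126 to 208 and Ebp, the sterol isomerase, from 859 to 1324. Neither passed with the drug in either line, and both were lower in sh-PRDM16 cells, with differences for Tm7sf2 of -0.49 with and -0.48 without the drug and for Ebp of -0.39 and -0.49 (highest adjusted p = 0.0136).

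Stard4, which carries cholesterol between membranes, had 274 and 294 in treated sh-PRDM16 cells, 238 and 227 in untreated sh-PRDM16 cells, 332 and 318 in treated sh-scr cells and 251 and 271 in untreated sh-scr cells. Its changes were small: it rose by 0.27 in sh-PRDM16 and 0.30 in sh-scr cells (adjusted p = 0.0429 and 0.0294). On the deposited scale the sh-scr value was -0.01, so its direction there is not settled.

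**Figure D2:**
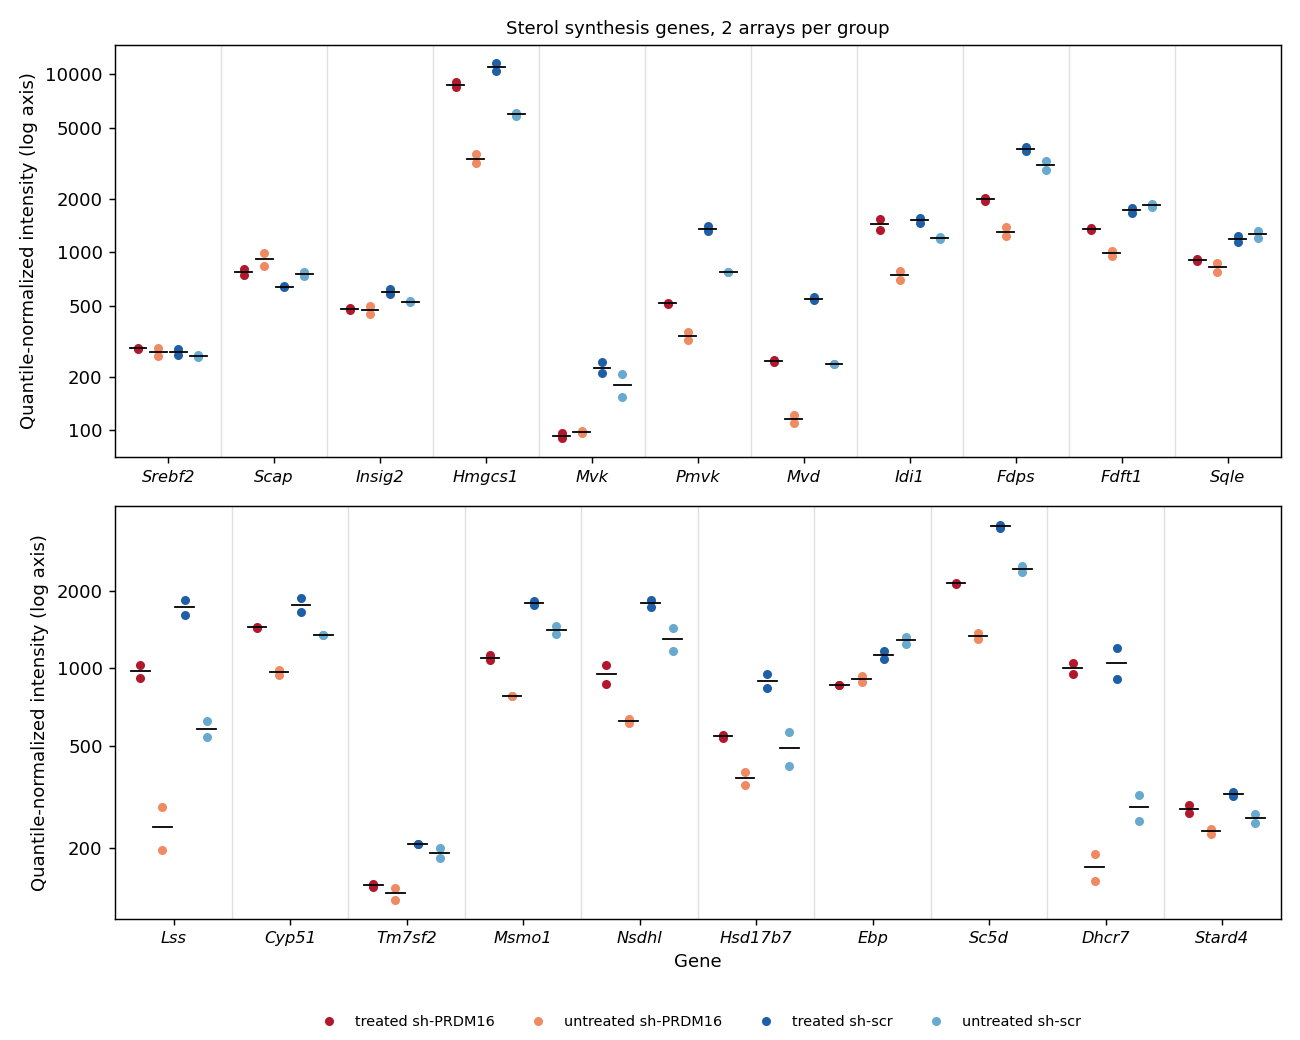
Quantile-normalized intensity (log axis) of the 21 sterol genes with a probe set in the 4 groups, in 2 panels ordered by step. Each point is 1 array and each black line a group mean (n = 2), and untreated sh-PRDM16 arrays lie below the other 6 for 16 genes, while Srebf2, Scap, Insig2, Mvk and Ebp do not have that order.

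Over the 21 sterol genes, rosiglitazone raised 14 and lowered 0 in sh-PRDM16 cells, and raised 11 and lowered 0 in sh-scr cells, beside the 13.3% and 13.2% of all genes that rose. The median change was log2 0.53 in sh-PRDM16 and 0.33 in sh-scr cells. All 11 genes raised in sh-scr cells were among the 14, and the other 3 were Fdft1, Fdps and Idi1. By step, 5 of 6 mevalonate genes and 8 of 11 genes from squalene to cholesterol rose in sh-PRDM16 cells, against 3 of 6 and 7 of 11 in sh-scr cells, and 0 of the 3 regulators rose in either. The mevalonate counts depend on the scale. With the arrays scaled to a common median instead, 5 of 6 mevalonate genes rose in each line, beside 1341 and 1380 of 9294 genes in sh-PRDM16 and sh-scr cells. The sh-PRDM16 cells were lower for 16 sterol genes and higher for 0 both with the drug and without it, beside 12.7% of all genes that fell in each case, with medians of -0.39 and -0.72. Of these, 14 were the same genes. The adipocyte and macrophage marker counts given for the fatty acid genes hold beside these too, and with the drug 5 of 8 adipocyte markers rose in sh-PRDM16 and 4 of 8 in sh-scr cells. Insig2 and Hsd17b7 passed only with the drug and Dhcr7 and Idi1 only without it, but their difference between drug states was not past the threshold in the interaction test given below. On their own, a second Hsd17b7 probe set passed in both drug states (-0.36 with and -0.34 without the drug, adjusted p = 0.0412 and 0.0499), and the other Insig2 probe sets passed in neither (-0.09 and -0.22 with the drug, adjusted p = 0.558 and 0.189).

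On the deposited scale, 5 of the 11 sterol rises in sh-scr cells missed the threshold (Cyp51, Msmo1, Nsdhl, Sc5d and Stard4), and Scap (-0.52) and Ebp (-0.44) passed as lower. In that comparison 5.24% of all genes rose and 32.3% fell, a larger share than that of the sterol genes that fell. In sh-PRDM16 cells, where 10.2% of all genes rose, Hsd17b7 and Stard4 missed the threshold. Between the treated lines, where 4.77% of all genes were lower, 8 of 16 missed it (Insig2, Hmgcs1, Fdft1, Sqle, Cyp51, Tm7sf2, Hsd17b7 and Ebp). All 16 between the untreated lines remained, where 15.7% of all genes were lower.

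Leaving out 1 of the 8 arrays at a time ended calls in each comparison. With the drug in sh-scr cells, Cyp51, Msmo1, Nsdhl and Stard4 missed the threshold without 3, 2, 5 and 4 of the arrays, with the highest adjusted p, 0.0754, 0.0808, 0.174 and 0.142, each without untreated sh-scr replicate 1. In sh-PRDM16 cells, Nsdhl and Stard4 missed it without 3 and 8 of the arrays (highest 0.0932 and 0.181, without treated sh-PRDM16 replicate 2) and Hsd17b7 without 6 (highest 0.178, without untreated sh-PRDM16 replicate 1). Between the untreated lines, Mvk missed it without 2 arrays (highest 0.0605, without untreated sh-PRDM16 replicate 2) and Cyp51, Tm7sf2 and Dhcr7 without 3, 2 and 6 (highest 0.0583, 0.0619 and 0.175, without untreated sh-scr replicate 2).

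Between the treated lines, Hmgcs1 missed the threshold without 7 of the 8 arrays, and its difference was -0.10 (adjusted p = 0.549) without treated sh-PRDM16 replicate 1. The same array gave the highest adjusted p of Fdft1, Lss and Ebp (0.0982, 0.114 and 0.0693, with 3, 4 and 3 arrays that end the call). Sqle and Tm7sf2 missed it without 4 and 1 arrays (highest 0.0982 and 0.0529, without treated sh-PRDM16 replicate 2), Insig2 and Cyp51 without 6 and 7 (highest 0.125 and 0.164, without treated sh-scr replicate 2) and Hsd17b7 without 4 (highest 0.0920, without treated sh-scr replicate 1). Dhcr7, Lss, Hmgcs1, Mvd, Pmvk and Sc5d passed with the drug in both lines whichever array was left out.

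Both untreated sh-PRDM16 arrays lay below the other 6 arrays for 8 of 10 fatty acid genes and 16 of 21 sterol genes, beside 14.0% of all genes tested. Both treated sh-scr arrays lay above the other 6 for 3 fatty acid genes (Acly, Acss2 and Me1) and 14 sterol genes, beside 15.1%. All 4 sh-PRDM16 arrays lay below all 4 sh-scr arrays for 5 and 11 genes, beside 8.84%.

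Treated sh-PRDM16 arrays lay below both untreated sh-scr arrays for 7 of 10 fatty acid genes and 11 of 21 sterol genes (33.7% of all genes). They lay above them for 0 of 10 fatty acid genes and 8 of 21 sterol genes (Srebf2, Hmgcs1, Mvd, Idi1, Lss, Cyp51, Dhcr7 and Stard4), and the sterol count is near the 33.4% of all genes that did so. This contrast changes both the shRNA and the drug, and neither it nor the difference between fatty acid and sterol genes was tested.

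**Figure D3:**
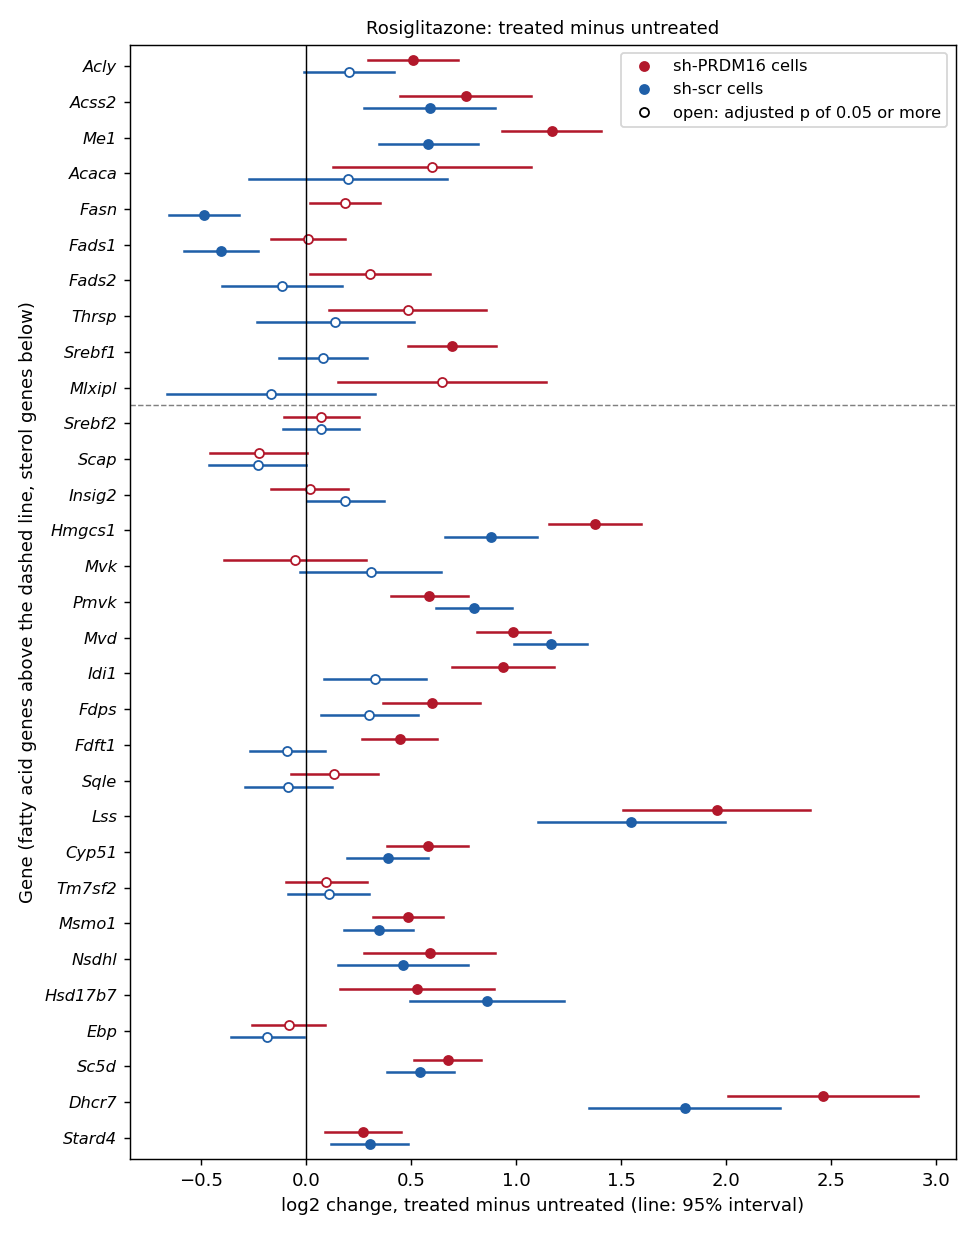
Change with rosiglitazone, treated minus untreated on the log2(intensity + 16) scale, for each of 31 genes in sh-PRDM16 cells (red) and sh-scr cells (blue), with 95% intervals from limma. Filled points passed at an adjusted p under 0.05, and Dhcr7 and Lss lie furthest to the right in both lines. The only filled points left of 0 are Fasn and Fads1 in sh-scr cells, where 8 of the 31 genes lie left of 0.

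**Figure D4:**
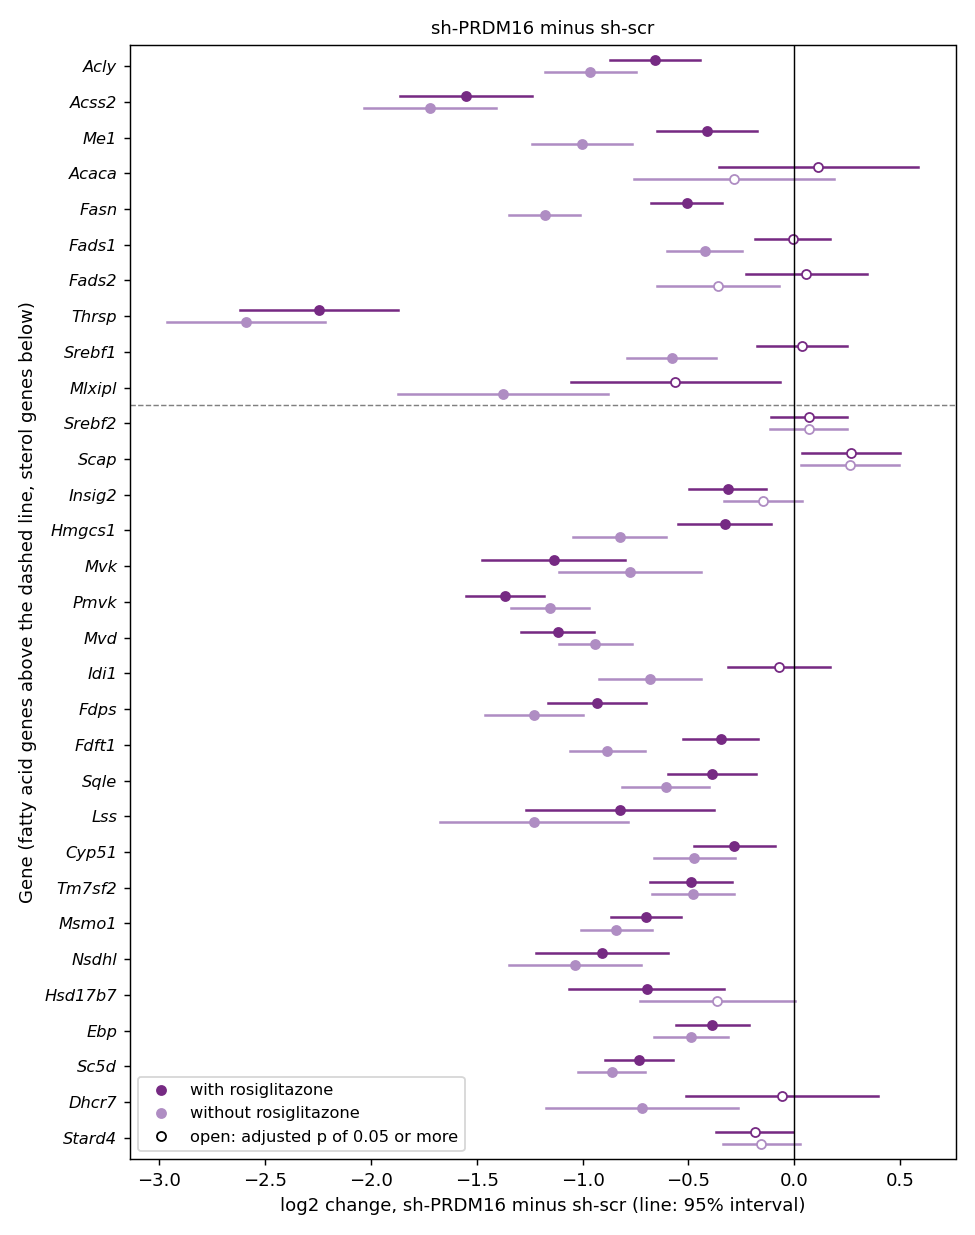
Difference of sh-PRDM16 minus sh-scr cells on the log2(intensity + 16) scale for the same 31 genes, with rosiglitazone (dark) and without (light), with 95% intervals from limma. Filled points passed at an adjusted p under 0.05, and every filled point lies left of 0.

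The difference between the lines' responses to the drug was tested directly as an interaction. By limma 0 of the 31 members passed it, where 0.0538% of all genes (5 of 9294) did, and at an unadjusted p under 0.05 there were 11 members and 1290 genes. A positive interaction is a higher log2 change with the drug in sh-PRDM16 than in sh-scr cells, which is not always a larger one. It was positive for all 10 fatty acid genes and for 14 of 21 sterol genes. Its medians were 0.42 and 0.13 against 0.01 for all genes. Among these, Fasn and Fads1 fell in sh-scr cells (-0.49 and -0.41), while their changes in sh-PRDM16 cells were 0.18 and 0.01. Scap and Ebp had negative changes in both lines, -0.233 and -0.186 in sh-scr and -0.227 and -0.085 in sh-PRDM16 cells. Fasn had the lowest p (log2 0.67, SE 0.10, 95% interval 0.43 to 0.91, adjusted p = 0.0769), followed by Fdft1 (0.54, adjusted p = 0.117), Srebf1 (0.62, adjusted p = 0.124), Idi1 (0.61, adjusted p = 0.162) and Me1 (0.59, adjusted p = 0.164). Insig2 had -0.17, Hsd17b7 -0.33 and Dhcr7 0.66 (95% intervals -0.43 to 0.09, -0.85 to 0.19 and 0.02 to 1.30). A variance prior with a trend called 4 fatty acid and 3 sterol genes and 259 of 9294 genes, and on the deposited scale 0 members and 0.753% of all genes passed, with a median of 0.33 over all genes.

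The 2 responses share no array. Across the 31 members they correlated at r = 0.843, beside r = 0.735 across all 9294 genes, where genes are not independent points and share the arrays' spread.

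**Figure D5:**
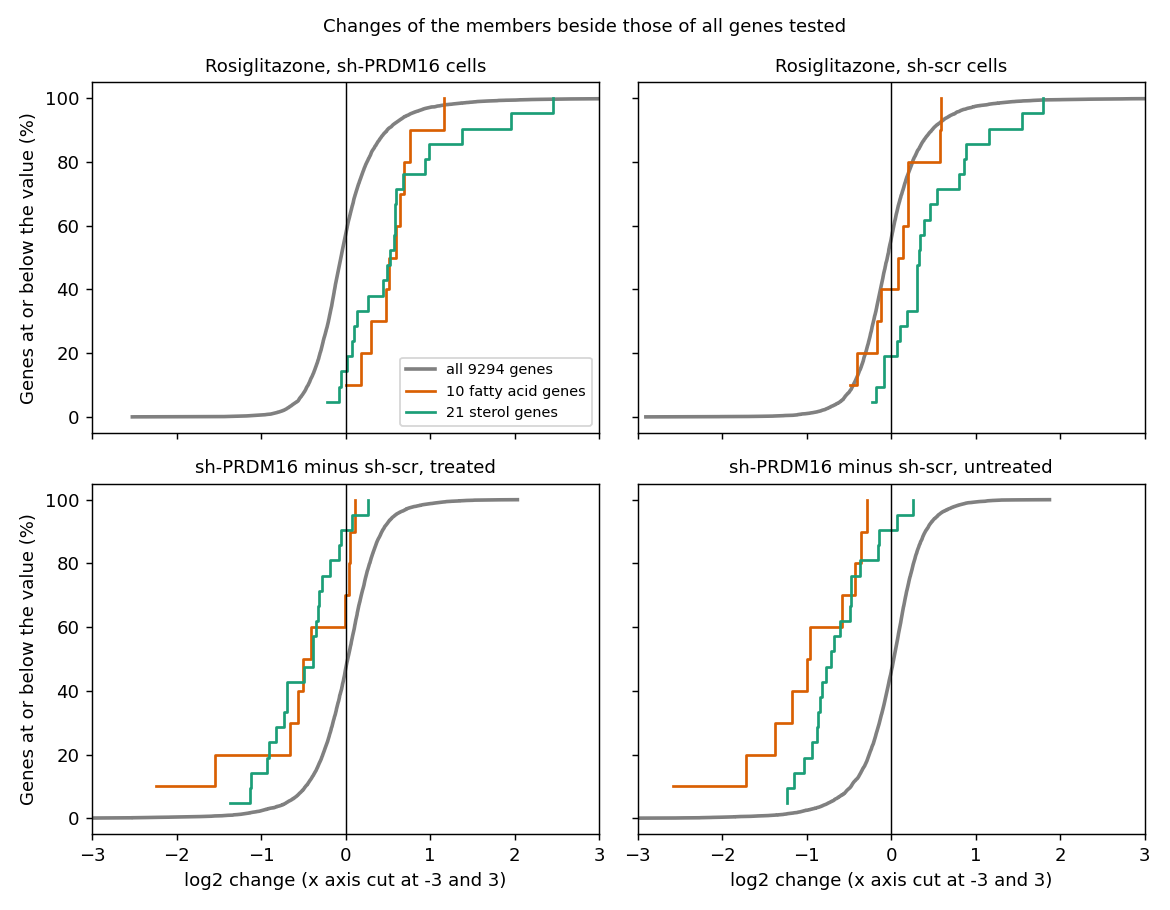
Share of genes at or below each log2 change for the 10 fatty acid genes, the 21 sterol genes and all 9294 genes tested, in 4 comparisons. The sterol curve lies mostly right of that of all genes for rosiglitazone in both lines (medians 0.53 and 0.33 in sh-PRDM16 and sh-scr cells), and both member curves lie mostly left of it for sh-PRDM16 minus sh-scr cells.

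The 31 genes had 59 probe sets, of which 55 were bright enough to be tested, each on its own, among 15284. Of the 55, 28 rose and 0 fell with rosiglitazone in sh-PRDM16 cells (11.0% and 10.7% of all probe sets), and 20 rose and 2 fell in sh-scr cells (11.3% and 11.2%). Between the lines 29 fell and 0 rose with the drug (9.84% and 9.26%) and 39 fell and 0 rose without it (9.52% and 7.77%). The 4 Hmgcs1 probe sets all rose with the drug in both lines, by 1.18 to 1.65 in sh-PRDM16 cells and 0.61 to 1.14 in sh-scr cells. The second Thrsp probe set gave -2.37 with and -2.40 without the drug for sh-PRDM16 against sh-scr cells, and the second Acss2 probe set -1.14 and -1.54. A second Lss probe set rose by 1.07 and 1.01 in sh-PRDM16 and sh-scr cells (adjusted p = 0.00697 and 0.00882) and the third did not pass (0.50 and 0.97, adjusted p = 0.408 and 0.128). For Cyp51 and Sc5d a dimmer probe set gave no rise: Cyp51 -0.08 and -0.11 and Sc5d -0.12 and 0.04 in sh-PRDM16 and sh-scr cells (adjusted p from 0.474 to 0.858). The main probe sets of Lss and Mvd have the suffix s and that of Fdft1 the suffix x, which mark probes that can bind related transcripts. No gene had probe sets called in opposite directions.

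Other calls made on the brightest probe set were not made on another one of the same gene. With rosiglitazone the second Acss2 probe set rose in sh-PRDM16 cells (0.72, adjusted p = 0.00964) but did not pass in sh-scr cells (0.31, adjusted p = 0.110). In sh-PRDM16 cells 2 other Acly probe sets missed the threshold (0.33 and 0.13, adjusted p = 0.0690 and 0.882), as did 1 of Fdft1 (0.30, adjusted p = 0.0915), and the second Stard4 probe set missed it in both lines (0.37 and 0.31 in sh-PRDM16 and sh-scr cells, adjusted p = 0.175 and 0.238).

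Between the treated lines, 2 other Hmgcs1 probe sets gave -0.15 and -0.23 without passing (adjusted p = 0.246 and 0.155), as did the Fdft1 one (-0.37, adjusted p = 0.0577). The second Mvd probe set missed the threshold between the untreated lines (-0.55, adjusted p = 0.0561). The Acly probe set that gave 0.13, the third of Lss and the dim ones of Cyp51 and Sc5d passed in none of the 4 comparisons.

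Other genes of the pathways, from lists outside the 33, moved in both directions. Of 16 other fatty acid synthesis genes tested, 8 rose and 1 fell with rosiglitazone in sh-PRDM16 cells (13.3% and 13.6% of all genes) and 3 rose and 4 fell in sh-scr cells (13.2% and 15.0%). Acacb, the mitochondrial acetyl-CoA carboxylase that makes malonyl-CoA to restrain fatty acid oxidation, had 134 and 149.7 in treated sh-PRDM16 cells, 3.15 and 3.91 in untreated sh-PRDM16 cells, 374 and 395 in treated sh-scr cells and 43.4 and 36.8 in untreated sh-scr cells. The treated arrays were above the untreated ones in each line (adjusted p = 3.5e-05 and 4.8e-05 in sh-PRDM16 and sh-scr cells) and the sh-PRDM16 arrays below the sh-scr arrays in each drug state (adjusted p = 0.000774 with and 0.000743 without the drug). Its untreated sh-PRDM16 level lies under the pseudocount of 16, which would set the size of a change against that group, so none is given for it. Nr1h3, the oxysterol receptor LXRα, rose in both (0.99 and 0.60), Elovl6, a fatty acid elongase, rose in sh-PRDM16 cells (0.68) and the lipase gene Pnpla3 fell in sh-scr cells (-0.86). Between the lines, sh-PRDM16 cells were lower for 4 and higher for 1 with the drug (12.7% and 12.6% of all genes) and lower for 11 and higher for 0 without it (12.7% and 10.6%). Besides Acacb, they were lower for the acyltransferase Gpam (-0.63 with it), the acetoacetyl-CoA synthetase Aacs (-0.54 with and -1.04 without it) and Elovl6 (-0.95 without it).

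Of 15 other sterol genes tested, 7 rose and 2 fell with the drug in sh-PRDM16 cells (13.3% and 13.6% of all genes) and 3 rose and 6 fell in sh-scr cells (13.2% and 15.0%). Lpin1, an SREBP-responsive phosphatidate phosphatase, rose in both (0.91 and 1.20), Ch25h, which makes 25-hydroxycholesterol, fell in both (-1.04 and -0.60), the mitochondrial thiolase Acat1 rose in sh-PRDM16 cells (0.60) and the glycolytic aldolase Aldoc in both (0.49 and 1.54). The sh-PRDM16 cells were lower for 4 and higher for 6 with the drug (12.7% and 12.6% of all genes) and lower for 6 and higher for 2 without it (12.7% and 10.6%). Aldoc (-1.73 with the drug and -0.68 without), Lpin1 (-1.14 with and -0.84 without) and the cholesterol exporter Abca1 (-1.30 without the drug) were lower, and Ch25h was higher without the drug (0.71). In neither list did a gene pass the interaction test by limma (9 of 16 fatty acid and 8 of 15 sterol genes at an unadjusted p under 0.05, beside 1290 of 9294 genes).

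Markers of cell types moved with the groups, and their part in the results above was not tested. The summed intensity of 8 adipocyte markers of 9 listed (among them Adipoq, Fabp4, Lpl and Cd36) was 67153 and 69119 in treated sh-PRDM16 cells, 50321 and 48984 in untreated sh-PRDM16 cells, 79119.9 and 80692 in treated sh-scr cells and 65353 and 66104 in untreated sh-scr cells. It was lowest in untreated sh-PRDM16 and highest in treated sh-scr cells, the order seen for many members. Bright genes weigh most in such a sum. In untreated sh-scr cells Fabp4 averaged 20833, Lpl 16901 and Adipoq 14034, but Cidec 856 and Slc2a4 298. Plin1 was not analysed here. Adipoq alone, which encodes the adipocyte hormone adiponectin, had 13693 and 13793 in treated sh-PRDM16 cells, 10768 and 10911 in untreated sh-PRDM16 cells, 15044 and 15085 in treated sh-scr cells and 13624 and 14444 in untreated sh-scr cells, so the labelled cell type's defining marker was measured on all 8 arrays.

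The sum of 6 preadipocyte markers of 7 listed was 10449 and 10509.6 in treated sh-PRDM16 cells, 15106 and 14876 in untreated sh-PRDM16 cells, 9282 and 8716 in treated sh-scr cells and 14218 and 13386 in untreated sh-scr cells. It was lower in the treated arrays of each line, where 5 of 6 markers fell in sh-PRDM16 and 4 of 6 in sh-scr cells (13.6% and 15.0% of all genes did). The sum of 7 macrophage and leukocyte markers was 857 and 822 in treated sh-PRDM16 cells, 1048 and 1129 in untreated sh-PRDM16 cells, 3159 and 3350.2 in treated sh-scr cells and 4306 and 4484 in untreated sh-scr cells, with Lyz2 between 129 and 2984 and Itgam between 1.74 and 11.8 over the 8 arrays. The sum was lower in sh-PRDM16 than sh-scr arrays in both drug states. Lyz2 made up most of it in sh-scr cells, with means of 1932 in treated and 2968 in untreated cells. In treated and untreated sh-PRDM16 cells Lyz2 averaged 131 and 242. Csf1r differed less, with 543 and 628 in treated and untreated sh-PRDM16 cells and 584 and 697 in sh-scr cells. The 5 smooth muscle markers summed to 26412 and 25262 in treated sh-PRDM16 cells, 29650.4 and 30650.3 in untreated sh-PRDM16 cells, 22779 and 21097 in treated sh-scr cells and 28119 and 27080.2 in untreated sh-scr cells, and the 5 endothelial markers to 322 and 325 in treated sh-PRDM16 cells, 562 and 546 in untreated sh-PRDM16 cells, 393 and 374 in treated sh-scr cells and 505 and 639 in untreated sh-scr cells. The 6 markers of mammary epithelium and mesothelium summed to 982 and 805 in treated sh-PRDM16 cells, 288 and 309 in untreated sh-PRDM16 cells, 273 and 377 in treated sh-scr cells and 166 and 187 in untreated sh-scr cells, with Krt19 between 87.4 and 896 and Epcam between 1.34 and 11.2 over the 8 arrays. The sum of 5 of 7 housekeeping genes ranged from 34101 to 37180.2 over the 8 arrays.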

How the data were processed

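RNA of 8 samples was measured on Affymetrix mouse arrays. The deposited values are linear intensities per probe set as the authors summarized them, in 1 table of 22690 probe sets. How they were background-corrected, summarized and scaled is not given in the sources used here. Per the labels' protocols, Trizol RNA was turned into biotin-labelled cRNA by in vitro transcription.

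Intensities were quantile normalized and analysed as log2(intensity + 16). Probe sets annotated to 1 gene (20380) were reduced to the brightest per gene by mean over all arrays, the lowest 25% of 12393 genes were left out, and 9294 were fitted with limma 3.58.1 in R 4.3.3, with 1 term per group over all 8 arrays and Benjamini-Hochberg adjustment over all genes. Adjusted p-values here are limma's, called below 0.05. The code was tested on simulated data. All members are named, and of other pathway genes up to 3 called with the largest change per comparison. Members and lists were chosen with earlier results of these data known. Group labels came from sample titles. Alternatives were the deposited and median scales, other filters and pseudocounts, the mean over probe sets, each probe set alone, a trended prior, a replicate block, fits of 4 arrays, and leaving out each array. Arrays carry no read depth, and their number limits the precision. Promoters are RefSeq windows of GRCm38.p6, read with Python 3.11.15.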

Additional observations from a re-analysis of the deposited data

How the results depend on the processing

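Of the 78 calls of members over 4 comparisons, 78 remained on the median scale and with a pseudocount of 64, 77 with the mean of all probe sets and with a trended variance prior, 75 with a pseudocount of 1, 73 with the replicate block, 69 with no filter, 67 when only the 4 arrays compared were fitted and 60 on the deposited scale, where 17 missed the threshold and 1 turned. With the lower 50% of genes left out, 73 of 73 remained. The median scale also added calls with rosiglitazone. Rises in sh-scr cells went from 2 to 3 fatty acid and from 11 to 13 sterol genes, and over all 9294 genes from 1228 to 1380. In sh-PRDM16 cells they went from 4 to 5 fatty acid genes, and over all genes from 1235 to 1341. Leaving out 1 array at a time, 529 of 624 calls remained. Each probe set of a called gene was also taken alone, including the brightest one, on which the call was made. Of these 147 values, 115 kept the call, 29 missed the threshold and 3 turned. Those 3 were dimmer probe sets with rosiglitazone: Cyp51 (-0.076 in sh-PRDM16 and -0.11 in sh-scr cells) and Sc5d (-0.12 in sh-PRDM16 cells). Stard4 turned on the deposited scale (-0.013 in sh-scr cells). The cause of these turns was not tested.

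Counts of members moved by more than 1.5 times as follows. With rosiglitazone in sh-PRDM16 cells, the 4 fatty acid calls became 7 with the trended prior and 2 to 6 when 1 array was left out. There, calls over all 9294 genes went from 2496 to 3036 with the trended prior. In sh-scr cells the 4 fatty acid calls became 2 to 4 and the 11 sterol calls 7 to 11 when 1 array was left out, and the 11 became 7 with only 4 arrays fitted. Between the treated lines, the 5 fatty acid calls became 3 and the 16 sterol calls 8 on the deposited scale, and the 16 became 7 to 15 when 1 array was left out. In the interaction, with 0 calls, 2 fatty acid and 1 sterol gene passed with the lower 50% of genes left out, 1 fatty acid gene with a pseudocount of 64, and 4 fatty acid and 3 sterol genes with the trended prior.

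Replicate numbers did not pair the samples: deviations of same-numbered arrays correlated at -0.028 to 0.057. With the number as a replicate block, 6 fatty acid and 12 sterol genes were called with rosiglitazone in sh-PRDM16 cells, 4 and 11 in sh-scr cells, 6 and 14 between the treated lines, 8 and 15 between the untreated lines and 0 and 0 in the interaction. In the same order, the block called 2283, 2368, 2048, 1888 and 0 of all 9294 genes. Over all genes, the deposited scale gave 1255 calls in place of 2496 with rosiglitazone in sh-PRDM16 cells and 1432 in place of 2349 between the treated lines. Fits of 4 arrays gave 1667 in place of 2620 with rosiglitazone in sh-scr cells, 1327 in place of 2349 between the treated and 1415 in place of 2166 between the untreated lines. Leaving out 1 array of the groups compared gave as few as 1348 with rosiglitazone in sh-PRDM16 and 1239 in sh-scr cells, and 907 between the treated and 872 between the untreated lines. The interaction's 5 calls became 70 on the deposited scale, 132 with the lower 50% left out, 100 with a pseudocount of 64, 259 with the trended prior, 15 with the mean of probe sets, 3 with no filter and 0 with a pseudocount of 1 or the block.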
